A study of Mus musculus with 9 samples.

Results

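The genes followed through mouse spermatogenesis were 9 members of the cohesin system. They were the meiotic subunits Rec8, Smc1b, Stag3 and Rad21l and their counterparts in mitotic cells, Smc1a, Rad21 and Stag2. The others were the shared subunit Smc3, and Sgo2a, which protects centromeric cohesin. The 9 were chosen by name for their known roles, out of 32285 genes in the tables, with earlier results of these data known. All 9 passed the low-count filter in every comparison below. The data were single cell RNA-seq libraries of whole testis from C57BL/6 mice (C57BL/6 J in the study's methods) at postnatal day (PND) 24, 1 library per mouse. Control mice (n = 4) were littermates or non-littermates of the mutants. The study calls its controls wild type, whereas control mouse 2 is marked as heterozygous in the deposit with no gene named. The control levels may therefore include mice that carried 1 mutant allele. NELF-B cKO mice (n = 2) carried 1 floxed and 1 null Nelfb allele and the Stra8-iCre transgene, and TDP-43 cKO mice (n = 3) carried the same arrangement at Tardbp. Stra8-iCre is active in spermatogonia from the first postnatal week, so the deletion is expected in germ cells and not in the somatic cells of the same testis, and cells in which it failed remain in the cKO libraries. NELF-B is a subunit of the complex that holds RNA polymerase II paused near promoters, and TDP-43 is an RNA- and DNA-binding protein.

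Cohesin is a ring made of a pair of SMC proteins closed by a kleisin, with a STAG protein bound to the kleisin. It holds sister chromatids together and, in meiosis, forms part of the chromosome axis on which homologs pair. In mitotic cells the ring holds SMC1A, SMC3, the kleisin RAD21 and STAG1 or STAG2. Germ cells entering meiosis add SMC1B, STAG3 and the kleisins REC8 and RAD21L, and SGO2 shields centromeric REC8 from separase at the first division.

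The germ cells were divided into spermatogonia (SG), spermatocytes (SC) and round spermatids (RS). The SC stages, in order, were abbreviated pL for preleptotene, L for leptotene, Z for zygotene, P for pachytene and D for diplotene. All were clusters of these cells named from marker genes, and all 9 genes were kept out of the genes used for clustering. The names pL, L and Z are uncertain. The fixed pL and L lists share Prdm9 and Dmc1, and the cluster called L had all markers of both lists raised and scored higher for pL than for L. In control mice the 5 pL markers summed to 531 to 776 CPM in the cluster called pL and to 1941 to 2020.4 CPM in that called L. Stra8, which is on the pL list alone, stood at 131 to 241 and 648 to 787 CPM. In control SG it stood at 255 to 329 CPM, above every pL value. The order of pL and L rests on the SG markers, which summed to 1886 to 2044 CPM in SG, 785 to 862 CPM in pL, 192 to 263 CPM in L and 34.0 to 42.2 CPM in Z SC. It also rests on Meiob, an L and Z marker, at 5.39 to 9.11 CPM in pL and 115 to 188 CPM in L SC. In what follows pL and L name these 2 clusters in that order, and steps into, between and out of them depend on the naming. So do results in Z SC, since the 5 Z markers summed to 1384 to 1527 CPM in control L SC and 1260 to 1348 CPM in control Z SC. The cluster called Z had 3 of 5 Z markers raised, and 3 L markers as well. After filtering, 45132 barcodes remained, 2982 to 8457 per library, from libraries of 119203347 to 159407373 unique molecular identifiers (UMIs). Barcodes in clusters left without a name entered no stage. They numbered 1919 to 6068 per control mouse, 2049 and 80 in NELF-B cKO mice and 4, 165 and 156 in TDP-43 cKO mice. Libraries shared 260 barcode sequences, which made up 520 of the kept barcodes. UMIs were summed over the cells of 1 stage in 1 mouse and are given per 1000000 UMIs of that sum (CPM); a mouse with fewer than 20 cells of a stage was left out of it. Nelfb stood at 67.7 ± 6.33 CPM (SD) in control SG (n = 4) and at 5.45 ± 0.66 CPM in NELF-B cKO SG (n = 2). Tardbp stood at 67.3 ± 2.80 CPM in control SG and at 33.9 ± 2.26 CPM in TDP-43 cKO SG (n = 3). Because much Tardbp RNA remained, the SG and the pL, L and Z SC of cKO mice in which the deleted gene was still detected (1 UMI or more) were removed. Only exon 3 of Tardbp was floxed and the libraries read 3' ends. A Tardbp UMI may therefore come from a deleted allele, which was not tested. In Z SC the removal cut TDP-43 cKO mouse 1 from 107 to 35 cells and from 2417335 to 572836 UMIs. Mouse 2 fell from 482 to 217 and from 6878153 to 2073418, mouse 3 from 558 to 214 and from 9162162 to 2488637. Cells kept thus held fewer UMIs each, also in SG, pL and L SC. In the main fits control cells were all kept. The study removed germ cells expressing the deleted gene at every stage, whereas P and D SC and RS were kept whole here. With the removal no TDP-43 cKO mouse would have had 20 cells in P or D SC, while both NELF-B cKO mice would have kept theirs in P SC (162 and 22 cells) and the 3 cKO mice with at least 20 RS would have kept 238, 23 and 45.

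The first question was when each subunit is expressed along spermatogenesis in control mice. The kleisins peaked at different stages. Rad21, the mitotic kleisin, was highest in SG at 156, 183, 164 and 155 CPM in the 4 control mice and fell at each of the next steps, to 84 to 108 CPM in pL SC and 29 to 40 CPM in L SC. Rec8, which holds sisters together until the second meiotic division, rose from 12.61, 15.10, 17.46 and 15.72 CPM in SG to 43.04, 56.01, 54.97 and 53.92 CPM in pL SC. The 4 pL values lay above all SG values, and the log2 change was 1.77 ± 0.18 (SE, adjusted p = 1.82e-08, edgeR quasi-likelihood test with mouse as a term). Rec8 then fell to 27.20, 53.69, 27.11 and 24.87 CPM in L SC and to 2.65 to 5.71 CPM in Z SC.

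Rad21l, the kleisin that is specific to germ cells by textbook knowledge, peaked in a shorter window. It stood at 9.36, 20.04, 9.27 and 9.70 CPM in pL SC, at 91.60, 96.49, 95.46 and 107.56 CPM in L SC, and at 8.43, 10.76, 15.31 and 8.64 CPM in Z SC. The L values lay far above those of both neighbours, with a log2 change of 3.13 ± 0.48 on entry (adjusted p = 6.02e-06) and -3.11 ± 0.46 on exit (adjusted p = 2.34e-06). By P SC it was at 0.21 to 0.98 CPM. In SG, control mice 2 and 3 stood at 7.79 and 6.88 CPM while mice 1 and 4 stood at 27.40 and 34.69 CPM, and with that spread SG and pL SC did not pass the test (log2 change -0.58 ± 0.48, adjusted p = 0.354).

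Rec8 transcript returned after meiosis. In P and D SC it was at 0.68 to 2.73 CPM, and in RS at 71.87, 80.54, 78.22 and 79.86 CPM, the highest level of any germ cell stage. The log2 change from D SC to RS was 5.93 ± 0.24 (adjusted p = 4.72e-18). Free RNA, read in barcodes with 1 to 100 UMIs, held Rec8 at 19.2 to 32.3 CPM in the control libraries, below the RS values and above the P and D values.

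Smc1b, the meiotic partner of SMC3, was high in SG before meiosis and peaked in L SC. Its control levels were 391, 391, 429 and 411 CPM in SG, 660, 725, 733 and 733 CPM in pL SC, and 1881, 1949, 2036 and 1982 CPM in L SC. The groups did not overlap at either step, with log2 changes of 0.82 ± 0.08 (adjusted p = 5.62e-09) and 1.55 ± 0.08 (adjusted p = 3.46e-14). The level in Z SC was 610 to 797 CPM (log2 change -1.41 ± 0.08, adjusted p = 6.71e-14). Smc1b then stood at 443 to 503 CPM in P SC, 239 to 289 CPM in D SC and 389 to 437 CPM in RS. From Z to P SC its log2 change by edgeR was 0.02 ± 0.08 (adjusted p = 0.866) with trimmed-mean scaling. With library size alone it was -0.56, so whether Smc1b fell there depends on the scaling. In Leydig cells, which do not enter meiosis, it was at 39.0 ± 12.5 CPM (SD, n = 4), below the 159 to 242 CPM of control free RNA.

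Stag3, the meiotic STAG subunit, rose through the same 2 steps and fell in Z SC. It stood at 79.1, 81.3, 78.0 and 70.4 CPM in SG, 167, 225, 191 and 172 CPM in pL SC, and 345, 395, 320 and 320 CPM in L SC. The log2 changes were 1.29 ± 0.09 (adjusted p = 1.99e-11) and 0.96 ± 0.09 (adjusted p = 1.96e-09). The fall to 166 to 190 CPM in Z SC was a log2 change of -0.85 ± 0.09 (adjusted p = 6.81e-09). Whereas Rad21l and Rec8 were at 2.73 CPM or less in P and D SC, Stag3 stood there at 159 to 183 and 145 to 158 CPM, above the 108 to 140 CPM of control free RNA. Its SG and RS values lie below that range. The change from Z to P SC was 0.50 ± 0.09 on the log2 scale with trimmed-mean scaling but -0.08 with library size alone, so its direction there depends on the scaling. In RS it stood at 73.6 to 105 CPM, below every D SC value (log2 change -1.19 ± 0.09, adjusted p = 1.42e-12).

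**Figure D1:**
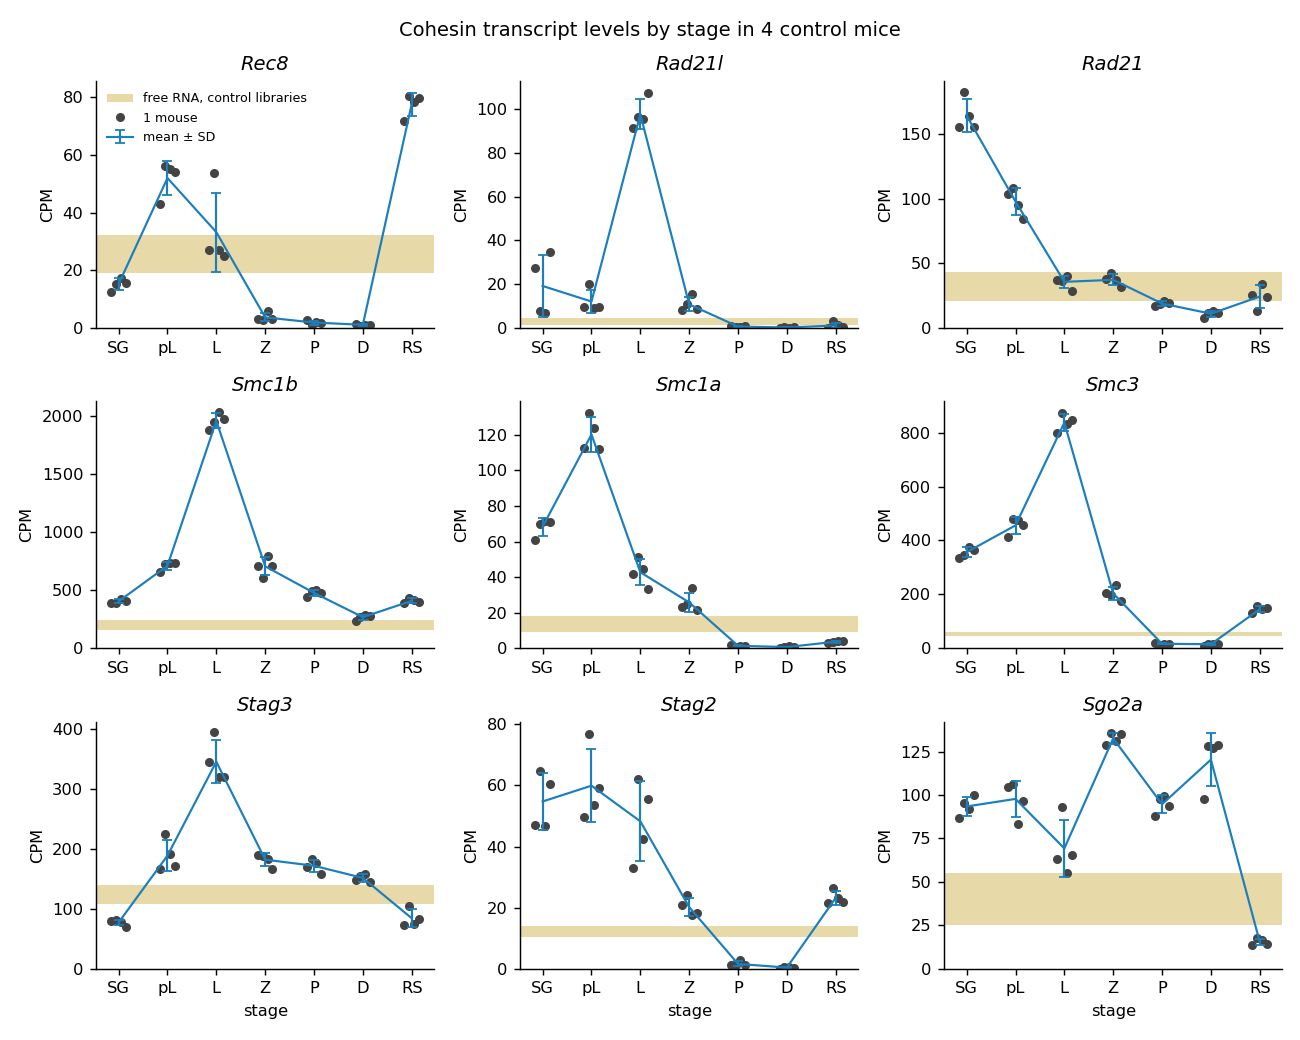
Level of each of the 9 genes in CPM at 7 germ cell stages of the 4 control mice, with 1 point per mouse, a line through the means, bars of 1 SD and a band for the range of free RNA in the control libraries. Rad21l peaks in L SC, Rec8 is high in pL SC and highest in RS, and Smc1a and Stag2 lie under the free RNA band in P and D SC.

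Smc3, the subunit common to mitotic and meiotic rings, rose with Smc1b and fell further than it. Control levels were 337, 348, 377 and 365 CPM in SG and 799, 872, 831 and 845 CPM in L SC. In Z SC they were 206, 199, 234 and 175 CPM, and in P SC 19.1, 14.2, 17.0 and 17.8 CPM. The steps to Z and P SC were log2 changes of -1.98 ± 0.12 (adjusted p = 2.97e-13) and -3.01 ± 0.13 (adjusted p = 1.09e-16), so in P SC the Smc3 level lay below the 46.1 to 62.5 CPM of control free RNA while Smc1b stayed at 443 to 503 CPM. Smc3 rose again to 130 to 157 CPM in RS (log2 change 2.84 ± 0.13, adjusted p = 9.12e-17).

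The mitotic subunits Smc1a and Stag2 lie on the X chromosome. Smc1a was at 60.9 to 71.7 CPM in SG and at 112 to 132 CPM in pL SC, then at 33.5 to 51.4 CPM in L SC, 21.36 to 33.82 CPM in Z SC and 0.94 to 1.85 CPM in P SC. The step from Z to P SC was a log2 change of -3.59 ± 0.17 (adjusted p = 8.71e-16). Stag2 was at 46.8 to 64.8 CPM in SG and 49.8 to 77.0 CPM in pL SC, and the 2 stages did not differ beyond the spread (log2 change 0.13 ± 0.17, adjusted p = 0.573). It stood at 17.59 to 24.17 CPM in Z SC and 1.15 to 2.79 CPM in P SC, a log2 change of -3.04 ± 0.22 (adjusted p = 3.07e-12). In RS Stag2 recovered to 21.6 to 26.4 CPM (log2 change 5.24 ± 0.28, adjusted p = 2.43e-15), whereas Smc1a stood at 2.89 to 4.28 CPM (2.03 ± 0.25, adjusted p = 3.62e-08), below the 9.03 to 17.9 CPM of free RNA.

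The X chromosome as a whole moved at the same steps. The X chromosome supplied 0.104 ± 0.0077% of UMIs in control P SC (SD, n = 4) against 0.975 ± 0.114% in Z SC, and 1.34 ± 0.0714% in RS. From Z to P SC, 508 of 724 X-linked genes tested were lower, with a median log2 change of -2.04 against 0.03 over all genes; from D SC to RS, 571 of 724 were higher. Smc3, on chromosome 19, and Rad21l, on chromosome 2, fell by 3.01 and 3.59 on the log2 scale from Z to P SC without being X-linked.

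Sgo2a moved the other way at several steps. Its control levels were 86.5 to 99.8 CPM in SG, 83 to 106 CPM in pL SC, 55 to 93 CPM in L SC and 129 to 135 CPM in Z SC. The rise from L to Z SC was a log2 change of 1.03 ± 0.12 (adjusted p = 2.99e-08). From P to D SC it was 0.72 ± 0.10 (adjusted p = 5.38e-07), with control mouse 1 at 97.4 CPM in D SC and the others at 127 to 129 CPM. In RS the level was 13.4 to 17.7 CPM (log2 change -3.31 ± 0.11, adjusted p = 3.85e-19).

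Counted over the members, 5 rose and 1 fell from SG to pL SC, where 17.3% of all genes rose and 24.1% fell. From pL to L SC 4 rose (17.1% of all genes) and 4 fell (20% of all genes). From L to Z SC 1 rose (23.9%) and 7 fell (21.3%), from Z to P SC 1 rose (34.9%) and 4 fell (26.2%), from P to D SC 1 rose (26.3%) and 2 fell (25.8%), and from D SC to RS 6 rose (37.2%) and 2 fell (40.9%). The median log2 change of the 9 from L to Z SC was -1.20, against 0.05 over all genes. With pL, L and Z SC taken as 1 stage, 4 members rose (29.7% of all genes) and 2 fell (29.5%) on leaving SG, none rose (28.9%) and 7 fell (43.1%) from there to P SC, 1 rose (18.6%) and 5 fell (34.8%) from P to D SC, and 6 rose (41.5%) and 2 fell (35.3%) from D SC to RS. The 2 members that did not fall on entry to P SC were Stag3 and Sgo2a, at log2 changes of 0.04 and 0.03. With library size alone both fell, at -0.26 each (adjusted p = 0.00467 and 0.00605), so their direction depends on the scaling. From P to D SC, Rec8, Smc1a and Rad21 passed the test in this fit and not in that of 7 stages. The stages are clusters of the same cells that were then tested, so these p-values describe how far apart the clusters stood. Under library size alone 8 members passed the test from Z to P SC in place of 5, with the median over all genes moved to -0.53. Of 19669 genes, 13193 were called there in place of 12024.

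The meiotic subunits were set against their paralogs as shares of UMIs. This compares counts from the 3' ends of different transcripts and so orders stages but not protein amounts. Smc1b took 85.6 ± 0.71% of Smc1a and Smc1b UMIs in control SG (SD, n = 4), 85.6 ± 0.89% in pL SC, 97.9 ± 0.37% in L SC and 99.7 ± 0.095% in P SC. Stag3 took 14.7 ± 2.18% of Stag1, Stag2 and Stag3 UMIs in SG, 33.2 ± 2.72% in Z SC, 62.3 ± 1.65% in P SC and 83.9 ± 0.79% in D SC. The Smc1b share thus rose at L SC, and the Stag3 share most from Z to P SC and from P to D SC, as Stag1 went from 347 ± 36.9 CPM in Z SC to 103 ± 7.48 CPM in P SC. Among kleisins, Rec8 took 7.67 ± 1.18% in SG and 32.2 ± 3.98% in pL SC, Rad21l took 58.9 ± 6.13% in L SC, and Rec8 took 75.6 ± 6.10% in RS.

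**Figure D2:**
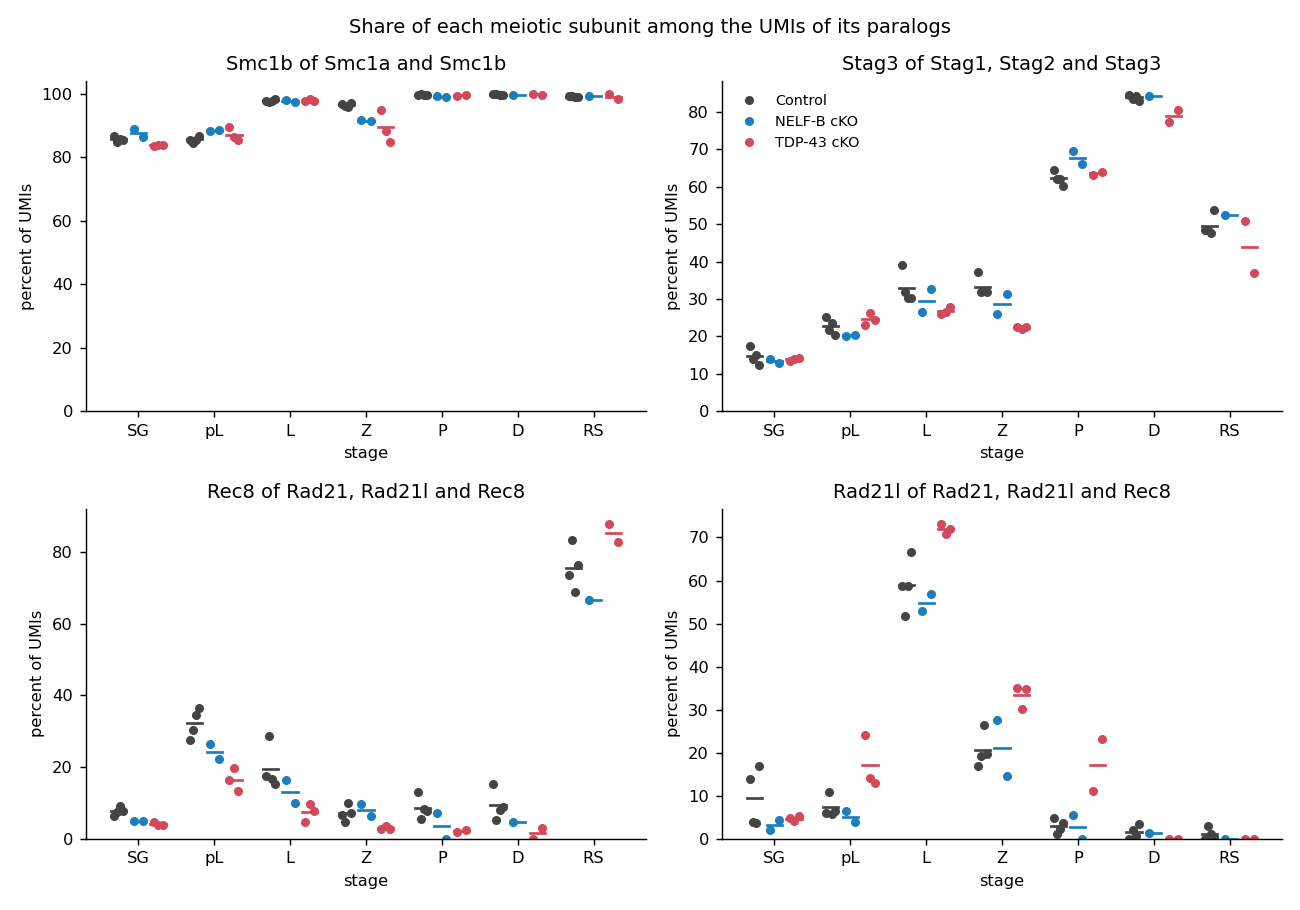
Percent of UMIs taken by Smc1b, Stag3, Rec8 and Rad21l within their paralog groups at each germ cell stage, with 1 point per mouse, colours for the 3 genotypes and bars at the group means. In Z SC the Smc1b and Stag3 shares of the TDP-43 cKO mice lie below those of every control mouse, and Rad21l takes its largest share in L SC.

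The promoters of the 4 meiotic subunits are shown because Smc1b, Stag3 and Rad21l rose together into L SC while Rec8 did not. Sequences are from RefSeq on GRCm38.p6, each from 150 bases before to 30 bases after the annotated start, 5′ to 3′ on the gene's strand, at chr15:85131928-85132107 (minus strand) for Smc1b, chr5:138280359-138280538 (plus) for Stag3, chr2:151668504-151668683 (minus) for Rad21l and chr14:55618016-55618195 (plus) for Rec8. Capitals mark TTCCCGC, a motif of E2F factors, or CTGAGG, the reverse complement of CCTCAG, the core of a motif given for STRA8.
Smc1b: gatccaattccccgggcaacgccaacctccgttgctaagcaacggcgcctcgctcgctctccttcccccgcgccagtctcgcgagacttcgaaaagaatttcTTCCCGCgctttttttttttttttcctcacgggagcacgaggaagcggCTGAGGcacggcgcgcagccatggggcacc
Stag3: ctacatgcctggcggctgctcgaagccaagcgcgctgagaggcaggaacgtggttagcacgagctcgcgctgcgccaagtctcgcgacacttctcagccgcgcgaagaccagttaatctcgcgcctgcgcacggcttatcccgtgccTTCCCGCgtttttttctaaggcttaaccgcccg
Rad21l: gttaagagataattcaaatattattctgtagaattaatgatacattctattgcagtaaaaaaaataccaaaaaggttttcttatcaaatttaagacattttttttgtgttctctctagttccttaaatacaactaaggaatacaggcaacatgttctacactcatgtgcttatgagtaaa
Rec8: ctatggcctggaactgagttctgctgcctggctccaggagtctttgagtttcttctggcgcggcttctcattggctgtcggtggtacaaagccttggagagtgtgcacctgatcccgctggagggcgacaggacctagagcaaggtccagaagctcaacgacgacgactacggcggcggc
TTCCCGC, read on both strands in the 300 bases from 250 before to 50 after the start, was in the windows of Smc1b, Stag3, Smc1a and 1 of the 2 windows listed for Sgo2a, and in 4.60% of 32851 promoters. CCTCAG was in the windows of Smc1b and the other window of Sgo2a and in 26.8% of promoters. The E-box CACGTG (7.15% of promoters) was in that of Stag3, outside the stretch printed, and CAGTTG, a MYB motif (13.7%), in those of Smc1a and Sgo2a. None of the 4 motifs was in the windows of Rad21l, Rec8 or Smc3. Of the 9 members, 7 had a promoter entry; Stag2 and Rad21 had none.

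In the annotation of the reference build (GRCm38, GENCODE M21) Rec8 lies at chr14:55618037-55625395, Smc1b at chr15:85064689-85131964, Stag3 at chr5:138280240-138312393, Rad21l at chr2:151645404-151668533, Smc3 at chr19:53600398-53645833, Smc1a at chrX:152016428-152062694, Rad21 at chr15:51962240-51991747, Stag2 at chrX:42149317-42277185 and Sgo2a at chr1:57995971-58025899. Smc1b, Smc1a, Stag2 and Sgo2a each overlap a gene on the opposite strand; the reads of this assay keep their strand.

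The second question was whether loss of NELF-B or TDP-43 altered these genes in the cells where deletion begins. In SG none of the 9 members passed the test in either cKO, where 0.0386% and 0.00552% of 18126 genes did (edgeR quasi-likelihood test). At an unadjusted p under 0.05 there was 1 member in NELF-B cKO and 3 in TDP-43 cKO. Rec8 was at 12.61, 15.10, 17.46 and 15.72 CPM in control mice, 9.38 and 10.41 CPM in NELF-B cKO mice and 6.89, 6.37 and 6.93 CPM in TDP-43 cKO mice. Every cKO value lay below every control value. The log2 difference from control was -1.10 ± 0.17 in TDP-43 cKO (unadjusted p = 8.40e-05, adjusted p = 0.123) and -0.61 ± 0.18 in NELF-B cKO (adjusted p = 0.306). DESeq2 called Rec8 in TDP-43 cKO SG (adjusted p = 7.88e-05), and so did the edgeR fits that left out either NELF-B cKO mouse (adjusted p = 0.0176 and 0.0206). Rec8 was lower in TDP-43 cKO mice in both SG clusters, at 17.2 against 6.84 CPM in the cluster led by genes that include Crabp1 and Lin28a and 11.3 against 6.59 CPM in the one led by genes that include Gfra1 and Zbtb16. The other 8 members in SG differed by log2 values of -1.54 to 0.22 with adjusted p from 0.151 upwards; both comparisons share the control mice. Between the cKO groups no member was called in SG by edgeR or DESeq2 (0.0938% of genes by edgeR), with 3 at an unadjusted p under 0.05.

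By edgeR Rec8 passed the test in pL SC of TDP-43 cKO mice, which it had not in SG. In pL SC it stood at 43.04, 56.01, 54.97 and 53.92 CPM in control mice, 44.50 and 40.87 CPM in NELF-B cKO mice and 17.50, 23.56 and 16.45 CPM in TDP-43 cKO mice. All TDP-43 cKO values lay below every other mouse, with a log2 difference from control of -1.37 ± 0.17 (adjusted p = 0.0398); it was the only member called, where 0.03% of 13312 genes were. TDP-43 cKO and NELF-B cKO mice also differed (-1.09 ± 0.19, adjusted p = 0.0190, 2.95% of genes called). This call was lost with no cell left out (-0.88, adjusted p = 0.0536) and without NELF-B cKO mouse 1 or TDP-43 cKO mouse 1 or 3, with adjusted p from 0.0208 to 0.119 over the mice left out. The call against control was lost with no cell left out (-1.13 ± 0.17, adjusted p = 0.0948) and without control mouse 2, 3 or 4 or any TDP-43 cKO mouse, over a range of adjusted p from 0.0160 to 0.189. In L SC the TDP-43 cKO mice stood at 5.91, 15.09 and 12.28 CPM and the control mice at 24.87 to 53.69 CPM (-1.54 ± 0.38, adjusted p = 0.0615).

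Some values moved with Rec8. In SG the 5 pL markers summed to 431 to 491 CPM in control mice and 350 to 393 CPM in TDP-43 cKO mice, the 5 P markers to 163 to 215 and 57.8 to 68.3 CPM, and the 5 D markers to 125 to 213 and 74.3 to 85.0 CPM. Stra8, a pL marker, was at 388 ± 42.6 against 283 ± 34.5 CPM (SD) in the Crabp1 and Lin28a cluster and at 116 ± 17.3 against 67.4 ± 14.4 CPM in the Gfra1 and Zbtb16 cluster. All of these were lower in TDP-43 cKO SG, as Rec8 was. The summed level of 7 SG markers in pL SC was 785 to 862 CPM in control mice and 947 to 1102 CPM in TDP-43 cKO mice, and that of 5 pL markers 531 to 776 CPM and 781 to 1149 CPM. The 5 L markers (490 to 701 against 707 to 976 CPM) and the 5 Z markers (426 to 601 against 542 to 774 CPM) were higher too in TDP-43 cKO mice, and the 5 P markers lower (182 to 236 against 47.6 to 87.2 CPM). The part of these markers in the result was not tested. RS, the germ cells with the most Rec8, numbered 178 to 719 in control mice and 3, 32 and 56 in TDP-43 cKO mice, barcodes of unnamed clusters not counted. Free Rec8 RNA was 19.2 to 32.3 CPM in control and 12.3 to 14.9 CPM in TDP-43 cKO libraries, above the SG values of both groups. The summed level of 8 RS markers in SG was 42.0 to 153 CPM in control mice and 14.4 to 24.9 CPM in TDP-43 cKO mice. Taking those markers in SG and pL SC as free RNA, with Rec8 in the ratio it has to them in the free RNA of the same library, gave 1.52 to 3.07 CPM of free Rec8 in control SG, 2.25 to 5.30 CPM in TDP-43 cKO SG, 1.62 to 3.88 CPM in control pL SC and 1.13 to 3.97 CPM in TDP-43 cKO pL SC. These estimates lie below the measured Rec8 of every control and TDP-43 cKO mouse at these stages, which was 6.37 to 6.93 CPM in TDP-43 cKO SG. They rest on the RS markers alone, whose ratio to free RNA was 0.524 to 2.14 in Z SC of TDP-43 cKO mice. A ratio over 1 cannot be a share of free RNA. The part of free RNA in the Rec8 differences was not tested.

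**Figure D3:**
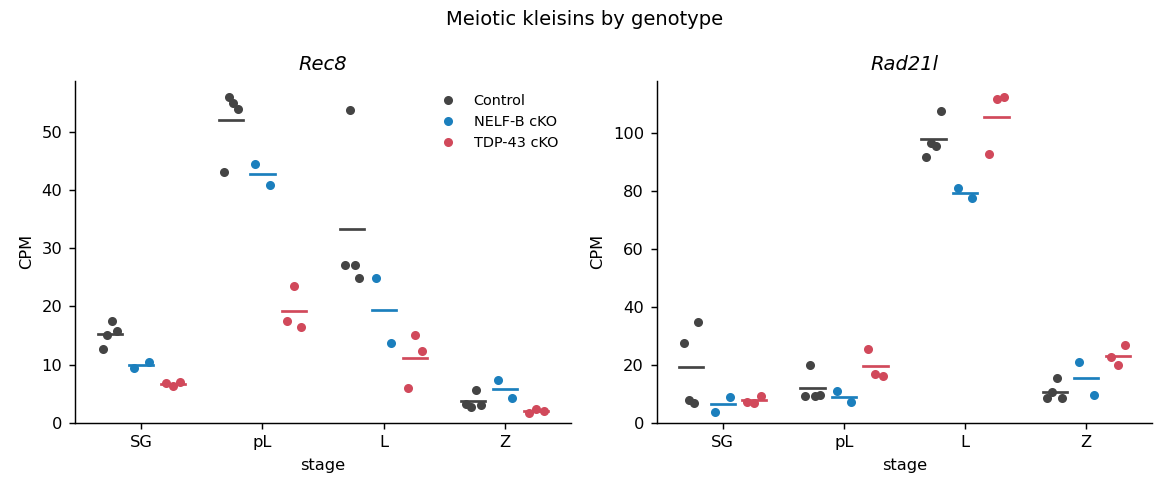
Levels of Rec8 and Rad21l in CPM in SG and in pL, L and Z SC, with 1 point per mouse, colours for the 3 genotypes and bars at the group means. Rec8 in pL SC is at 16.45 to 23.56 CPM in TDP-43 cKO mice, under all control and NELF-B cKO mice, while Rad21l peaks in L SC in all 3 genotypes.

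With pL, L and Z SC summed, 5 members were higher (9.33% of 16091 genes) and 1 lower (14.1%) in TDP-43 cKO mice. The X-linked mitotic subunits Stag2 (0.89 ± 0.12, adjusted p = 0.00201) and Smc1a (0.74 ± 0.15, adjusted p = 0.00977), the kleisin Rad21l (0.95 ± 0.21, adjusted p = 0.0120), Smc3 (0.55 ± 0.13, adjusted p = 0.0142) and Smc1b (0.45 ± 0.13, adjusted p = 0.0319) were higher. Rec8 was lower (-0.88 ± 0.20, adjusted p = 0.0151). Stag3, Rad21 and Sgo2a did not pass the test, at 0.03, -0.00 and -0.26. The median of the 9 was 0.45 against 0.01 over all genes. In NELF-B cKO mice 2 members were higher (2.75% of 16091 genes) and none lower (2.06%): Smc3 (0.63 ± 0.14, adjusted p = 0.0369) and Stag2 (0.55 ± 0.13, adjusted p = 0.0421). Rad21 stood at 0.54 ± 0.15 (adjusted p = 0.0693) and Smc1a at 0.50 ± 0.17 (adjusted p = 0.104). Both NELF-B cKO calls rested on single libraries: neither held without control mouse 1, 2 or 4, either NELF-B cKO mouse, or TDP-43 cKO mouse 2 or 3. Leydig markers in these sums were at 13.5 to 27.0 CPM in control and 56.6 to 89.2 CPM in NELF-B cKO mice. Interstitial markers (4.05 to 8.05 against 11.7 to 25.7 CPM) and macrophage markers (1.79 to 4.03 against 6.25 to 8.80 CPM) were higher too. Sertoli, myoid, endothelial and other immune markers overlapped the control range. The part of these markers in the calls was not tested. In TDP-43 cKO 2 members were called without TDP-43 cKO mouse 1 and 3 without control mouse 4. No member differed between the cKO groups in this sum by the main test (0.851% of genes called). At an unadjusted p under 0.05 there were 4 such members, and DESeq2 called Rec8 alone.

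These sums mixed stages in different proportions. Z SC made up 37.7, 59.1, 45.7 and 59.6% of the pL, L and Z cells in control mice, 17.7 and 31.4% in NELF-B cKO mice and 10.6, 35.4 and 35.8% in TDP-43 cKO mice. Removing the cells that held a UMI of Nelfb or Tardbp from the control mice too left only Rec8 called in TDP-43 cKO (-1.34 ± 0.27, adjusted p = 0.0227), with Stag2 at 0.60 ± 0.21 (adjusted p = 0.109), Smc1a at 0.26 ± 0.18 (adjusted p = 0.438) and Rad21l at 0.44 ± 0.21 (adjusted p = 0.255). Each stage was also tested alone, but removal of such cells from the control mice was not run for single stages.

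Within Z SC both X-linked members were higher in the cKO mice. Stag2 stood at 20.74, 24.17, 17.59 and 18.24 CPM in control mice, 48.04 and 39.77 CPM in NELF-B cKO mice and 87.28, 78.61 and 90.01 CPM in TDP-43 cKO mice. The 3 groups did not overlap. The log2 difference from control was 2.11 ± 0.15 in TDP-43 cKO (adjusted p = 1.27e-06) and 1.03 ± 0.18 in NELF-B cKO (adjusted p = 0.00581), and the cKO groups differed by 1.08 ± 0.19 (adjusted p = 0.00581, 5.18% of genes called). Smc1a stood at 23.01, 25.00, 33.82 and 21.36 CPM in control mice, 49.17 and 58.09 CPM in NELF-B cKO mice and 54.12, 85.85 and 108.49 CPM in TDP-43 cKO mice. No cKO value fell within the control range, with log2 differences of 1.80 ± 0.21 (adjusted p = 5.80e-05) and 0.99 ± 0.24 (adjusted p = 0.0335); the cKO groups did not pass the test between them (0.80, adjusted p = 0.0976).

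Free RNA of these genes also differed between genotypes. Free Stag2 was at 10.5 to 14.1 CPM in control, 16.1 to 25.8 CPM in NELF-B cKO and 34.2 to 48.8 CPM in TDP-43 cKO libraries, and free Smc1a at 9.03 to 17.9, 23.9 to 59.7 and 63.7 to 70.6 CPM. The share of free RNA in Z SC was estimated from the 7 Sertoli markers, as their level in Z SC over that in the free RNA of the same library. It gave 2.30 to 3.39, 3.34 to 5.63 and 2.54 to 6.67 CPM of free Stag2 and 2.09 to 3.72, 7.72 to 8.34 and 4.73 to 9.56 CPM of free Smc1a in the 3 genotypes. Without it Stag2 stood at 14.8 to 21.6, 36.4 to 42.4 and 71.9 to 84.7 CPM and Smc1a at 19.3 to 30.1, 40.8 to 50.4 and 49.4 to 99.4 CPM, and by this estimate the cKO mice did not overlap the control mice. The 6 Leydig markers gave at most 10.4 CPM of Stag2 and 14.9 CPM of Smc1a. The RS markers gave other values. Their ratio to free RNA was 0.173 to 0.686 in NELF-B cKO mice and 0.524 to 2.14 in TDP-43 cKO mice, where a ratio over 1 cannot be a share of free RNA. By them Stag2 without free RNA was 16.3 to 22.5 CPM in control and 22.1 to 45.3 CPM in NELF-B cKO mice, and Smc1a 20.5 to 32.0 and 17.13 to 45.04 CPM, so that these groups overlapped. The estimates were chosen after seeing the data, and the part of free RNA in the Z SC differences was not settled by them.

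Rad21l was higher and Stag3 lower in Z SC of TDP-43 cKO mice. Rad21l stood at 8.43, 10.76, 15.31 and 8.64 CPM in control mice, 20.91 and 9.75 CPM in NELF-B cKO mice and 22.69, 19.77 and 26.92 CPM in TDP-43 cKO mice (log2 difference 1.15 ± 0.29, adjusted p = 0.0116 for TDP-43 cKO). Stag3 stood at 190, 188, 183 and 166 CPM, 179 and 167 CPM, and 138, 140 and 128 CPM in the same order (-0.39 ± 0.11, adjusted p = 0.0202 for TDP-43 cKO). In each case the TDP-43 cKO mice did not overlap the control mice. In all, 3 members were higher (12.4% of 12656 genes) and 1 lower (15%) in TDP-43 cKO Z SC, and 2 higher (3.72%) and none lower (1.54%) in NELF-B cKO Z SC. In NELF-B cKO Z SC Stag2 passed the test without each mouse in turn, though with 1 NELF-B cKO mouse left the spread came from the other groups alone, while that of Smc1a was lost without control mouse 1, 2 or 4, either NELF-B cKO mouse or TDP-43 cKO mouse 2 (adjusted p up to 0.146). The Stag2 difference between the cKO groups was lost with no cell left out (0.97, adjusted p = 0.0895). The calls of Stag2 and Smc1a in TDP-43 cKO Z SC held without each mouse in turn (adjusted p up to 3.92e-05 and 0.00114), while 2 to 5 members in all were called, 2 of them without TDP-43 cKO mouse 3.

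The whole X chromosome stood higher in the cKO Z SC. It supplied 0.945, 0.939, 1.141 and 0.876% of Z SC UMIs in control mice, 1.745 and 1.804% in NELF-B cKO mice and 2.889, 2.864 and 2.926% in TDP-43 cKO mice. At earlier stages the TDP-43 cKO mice were also above every control mouse, by less: 1.89 to 1.95% against 1.70 to 1.88% in SG, 2.39 to 2.49% against 1.95 to 2.31% in pL SC and 2.48 to 2.61% against 2.04 to 2.38% in L SC. In Sertoli cells, where no deletion is expected, the X share was 3.08 to 3.67% in control mice. There it was 3.60 and 4.35% in NELF-B cKO mice and 3.91 to 4.39% in TDP-43 cKO mice, so every TDP-43 cKO mouse lay above every control mouse. In Z SC of TDP-43 cKO mice 349 of 472 X-linked genes tested were higher and 3 lower, with a median log2 difference of 1.46 against 0.01 over all genes; in NELF-B cKO mice 171 were higher, with a median of 0.79. As a share of X-linked UMIs, Stag2 was at 0.210 ± 0.043%, 0.248 ± 0.039% and 0.295 ± 0.018% in control, NELF-B cKO and TDP-43 cKO mice, and Smc1a at 0.262 ± 0.025%, 0.302 ± 0.028% and 0.286 ± 0.093% (SD). Stage markers moved too: 5 P markers summed to 772 to 913 CPM in control Z SC, 619 to 675 CPM in NELF-B cKO and 302 to 437 CPM in TDP-43 cKO mice, 5 pL markers to 226 to 289, 278 to 345 and 472 to 569 CPM, and the 5 Z markers themselves to 1260 to 1348, 1005 to 1213 and 1506 to 1721 CPM. Whether the cKO Z cells stood earlier within Z SC was not tested.

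**Figure D4:**
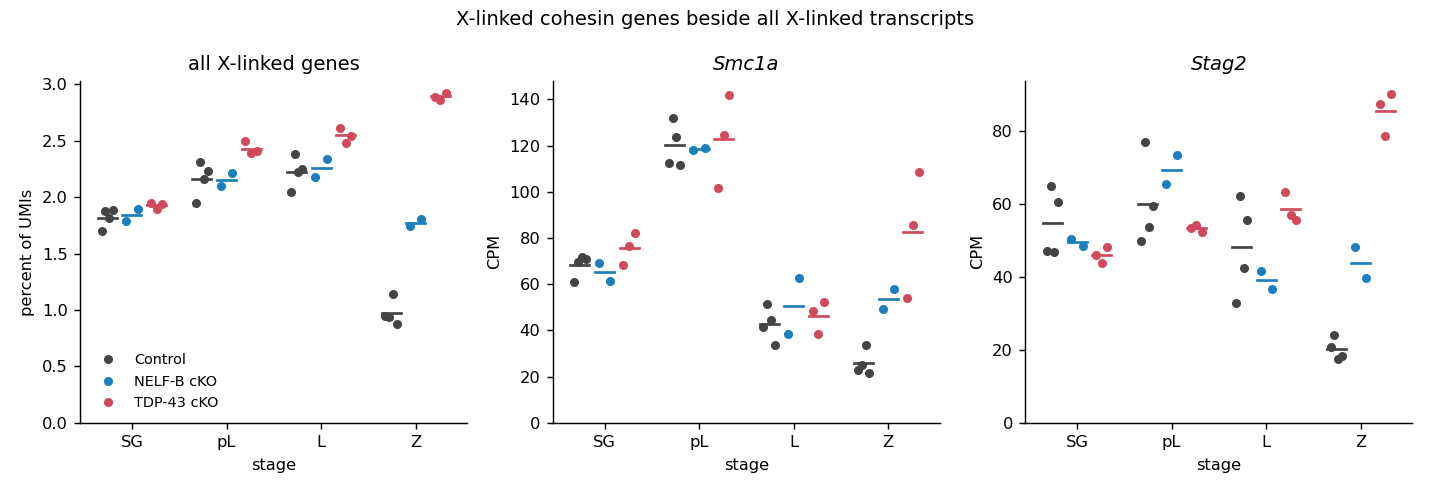
Percent of UMIs from the X chromosome, and levels of Smc1a and Stag2 in CPM, in SG and in pL, L and Z SC, with 1 point per mouse, colours for the 3 genotypes and bars at the group means. In Z SC the X share of the TDP-43 cKO mice lies highest, at 2.864 to 2.926%, with the NELF-B cKO mice between them and the control mice. Cells of cKO mice that held a UMI of the deleted gene are left out. With no cell left out the TDP-43 cKO values were 2.134 to 2.939%.

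In pL and L SC taken alone, neither Stag2 nor Smc1a differed from control in either cKO. In TDP-43 cKO mice Stag2 stood at -0.10 ± 0.15 in pL SC and 0.33 ± 0.19 in L SC, and Smc1a at 0.09 ± 0.11 and 0.20 ± 0.21, with adjusted p of 0.361 or more. Rad21l was at 0.77 ± 0.35 in pL SC (adjusted p = 0.212) and 0.17 ± 0.11 in L SC (adjusted p = 0.435). By edgeR no member was called in L SC in TDP-43 cKO mice (0.187% of 11221 genes; 3 members at an unadjusted p under 0.05) or NELF-B cKO mice (3.27% of genes; 2 members) or between the cKO groups (3.92%; 3 members), or in pL SC in NELF-B cKO mice (0.3% of 13312 genes; 3 members).

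**Figure D5:**
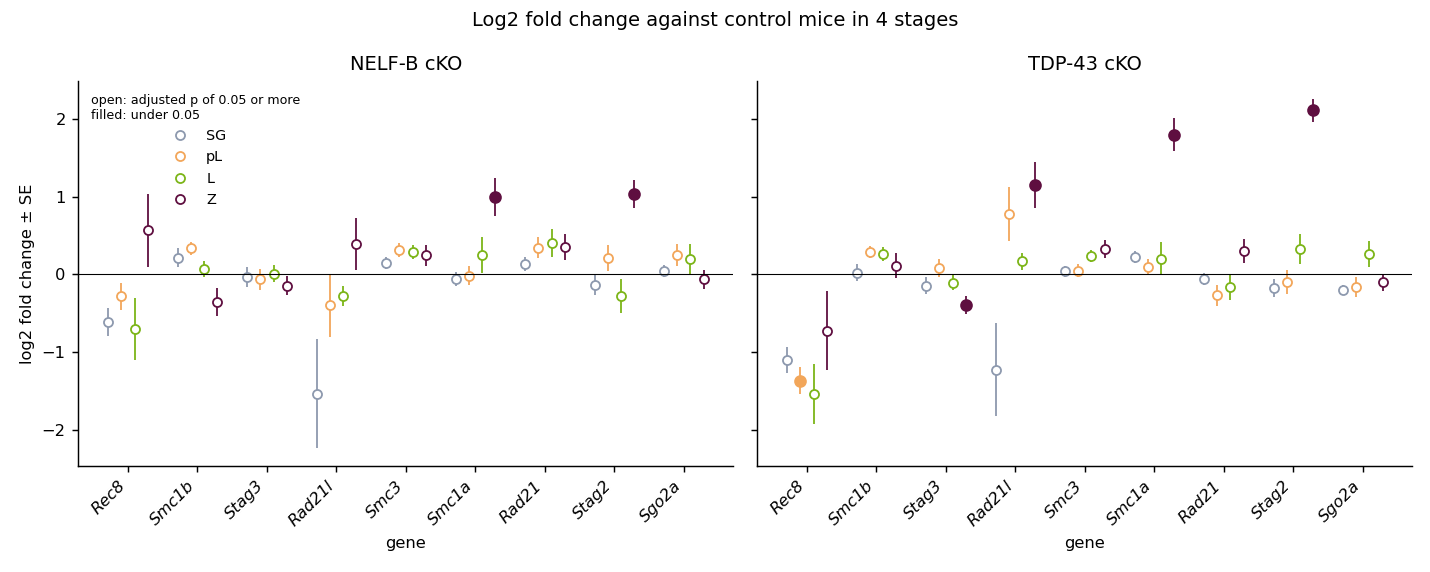
Log2 fold change against control of each of the 9 genes, with its standard error, in NELF-B cKO (left) and TDP-43 cKO mice (right), for SG and for pL, L and Z SC each alone; filled points have an adjusted p under 0.05. The filled points are Smc1a and Stag2 in Z SC of both cKO groups, Rad21l and Stag3 in Z SC of TDP-43 cKO mice, and Rec8 in their pL SC.

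In P SC the cKO groups were small, with 179 and 28 cells in the NELF-B cKO mice and 4, 104 and 58 cells in the TDP-43 cKO mice, of which the mouse with 4 was left out. No cell was removed for a UMI of the deleted gene. Of the TDP-43 cKO P cells 4, 101 and 57 held a Tardbp UMI, so that 0, 3 and 1 would have remained, and of the NELF-B cKO P cells 17 and 6 held a Nelfb UMI. The TDP-43 cKO values in P SC are therefore those of Tardbp-positive cells almost alone. Smc1a was at 4.11 and 4.16 CPM in NELF-B cKO mice and 0.94 to 1.85 CPM in control mice (log2 difference 1.54 ± 0.35, adjusted p = 0.0381), the only member called, where 2.48% of 15057 genes were higher. All of these levels lie under those of free RNA, and the call was lost with the 17 and 6 Nelfb-positive cells removed (1.61, adjusted p = 0.0556). It was also lost without any control mouse, NELF-B cKO mouse 1 or TDP-43 cKO mouse 2 or 3; without NELF-B cKO mouse 2 it passed (adjusted p = 0.0327), with 1 NELF-B cKO mouse and the spread of the other groups. In TDP-43 cKO mice none was called by edgeR (0.0797% of genes), 3 had an unadjusted p under 0.05, and DESeq2 called Rad21l. Rad21l was at 2.81 and 5.56 CPM there against 0.21 to 0.98 CPM in control mice (2.75 ± 0.60, adjusted p = 0.207). Between the cKO groups neither edgeR (0.345% of genes) nor DESeq2 called a member in P SC, and 4 had an unadjusted p under 0.05. In TDP-43 cKO mice Smc1b at 516 and 516 CPM lay above the control range of 443 to 503 CPM without passing the test, and Stag3 at 169 and 167 CPM lay within its control range.

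The kleisins' shares were compared between genotypes over mice. With pL, L and Z SC summed, Rec8 took 21.6 ± 1.16% of kleisin UMIs in control mice (SD, n = 4), 19.04 ± 2.94% in NELF-B cKO mice (n = 2) and 10.6 ± 2.31% in TDP-43 cKO mice (n = 3), and Rad21l took 23.4 ± 4.50%, 20.5 ± 5.80% and 40.3 ± 5.72%. The TDP-43 cKO mice lay apart from the control mice for both (exact two-sided permutation test, p = 0.0571, the smallest that 4 against 3 mice allow). The L SC share of Rad21l was 58.9 ± 6.13% and 71.9 ± 1.14% (exact permutation p = 0.0571). In Z SC Smc1b took 96.5 ± 0.58% of its pair in control mice, 91.6 ± 0.41% in NELF-B cKO mice and 89.4 ± 5.07% in TDP-43 cKO mice. Stag3 took 33.2 ± 2.72%, 28.7 ± 3.83% and 22.3 ± 0.29%. Of 48 such tests 24 reached the smallest p their design allows, and none passed after Benjamini-Hochberg adjustment (0.196 at the lowest).

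Of 16 further genes of the cohesin pathway, 15 passed the low-count filter. In SG edgeR called none in either cKO; 5 in NELF-B cKO and 2 in TDP-43 cKO had an unadjusted p under 0.05, and DESeq2 called none and 1. With pL, L and Z SC summed, NELF-B cKO mice had 4 higher (2.75% of all genes) and none lower (2.06%): Esco1 (0.61) and Esco2 (0.76), the acetyltransferases that lock cohesin on chromatin, Pds5a (0.59), a regulator of cohesin release, and Ctcf (0.64), the factor that positions cohesin at loop anchors. TDP-43 cKO mice had Esco1 (0.35), Esco2 (0.75) and Hdac8 (1.04) higher (3 genes, 9.33% of all genes) and Pttg1 (-0.76), the inhibitor of separase, lower (14.1%). In pL SC alone none of the 15 was called in either cKO (0.3% and 0.03% of all genes; 8 in NELF-B cKO and 1 in TDP-43 cKO at an unadjusted p under 0.05), in L SC Ctcf and Esco1 were higher in NELF-B cKO (3.27% of all genes called) and none was called in TDP-43 cKO (0.187%; 2 at an unadjusted p under 0.05), and in Z SC none was called in NELF-B cKO (3.72% of all genes higher and 1.54% lower; 3 at an unadjusted p under 0.05) and neither Esco1 nor Esco2 in TDP-43 cKO. In P SC Stag1 alone of the 15 was called, lower in NELF-B cKO mice, and none in TDP-43 cKO mice (0.0797% of all genes called). In NELF-B cKO P SC 2.48% of all genes were higher. The share that was lower is not given, so the Stag1 call cannot be weighed against it. Between the cKO groups Ctcf was lower in TDP-43 cKO pL SC (2.95% of all genes called) and L SC (3.92%). Hdac8 was higher in TDP-43 cKO than in NELF-B cKO Z SC (5.18%). Hdac8 deacetylates SMC3 and is the only X-linked gene of the 16. In Z SC alone Hdac8 stood at 30.3 ± 5.01 CPM in control mice and 115 ± 28.3 CPM in TDP-43 cKO mice (log2 difference 2.00), and Pttg1 (-0.86) and the separase gene Espl1 (-0.59) were lower (12.4% of all genes higher and 15% lower). Of 10 genes of condensin and the SMC5/6 complex, 1 was higher in NELF-B cKO mice, and 1 was higher and 1 lower in TDP-43 cKO mice, in the same sum and against the same shares of all genes.

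The 4 meiotic members had different neighbours in the control mice. Over 20 sums (4 control mice at 5 stages, pL, L and Z SC summed; log2 of CPM plus 1), the genes with the highest Pearson r among 13763 were Bbx, Azin2 and Atf5 for Rec8 (each 0.99), Sepsecs, Gm27188 and Aff4 for Smc1b (0.98, 0.96 and 0.96), Arhgap19, Yipf5 and Gbf1 for Stag3 (0.98, 0.97 and 0.97), and Gm15262, Myrf and Hprt for Rad21l (0.97, 0.96 and 0.96). Between members r was 0.67 for Smc1b with Rad21l, 0.45 for Smc1b with Stag3 and 0.01 for Stag3 with Rad21l. For Rec8 it was 0.39 with Smc1b, 0.40 with Rad21l and -0.50 with Stag3. The sums of 1 mouse share a library and those of 1 stage share a cell state, so these values are descriptive.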

How the data were processed

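The authors made 10x Genomics 3' v3.1 libraries of whole testis and deposited, per mouse, a count matrix of UMIs from Cell Ranger (7.0.0 and 6.1.1 in the submitters' processing notes, which also list Seurat 4.2.0 and DESeq2 1.36), on a GRCm38 (mm10) reference. The deposited counts are not normalized. Cell barcodes were required to show more than 1000 genes, with less than 10% of UMIs mitochondrial, and a gene had to occur in more than 15 of these barcodes. No doublet caller was run and no doublets were removed. Barcodes were clustered with scanpy 1.11.5 (3000 variable genes, 40 components, 20 neighbours, Leiden resolution 0.8) without the 9 members, the pathway and other SMC genes, Nelfb or Tardbp, and named from fixed markers; clusters with fewer than 3 markers, markers of another class or a median under 2000 UMIs stayed unnamed. The cluster called L scored best for pL and second for L, with every marker of both lists raised, and was called L for the latter; this rule and the estimates of free RNA in SG, pL and Z SC were chosen after seeing the data. Germ cells that held a Nelfb or Tardbp UMI were removed from SG, pL, L and Z SC of cKO mice and kept in P and D SC and RS.

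UMI counts were summed per mouse and stage and tested with edgeR 4.0.16 (quasi-likelihood, trimmed-mean factors, filterByExpr) in R 4.3.3, with all 3 groups in 1 fit; a call is a Benjamini-Hochberg adjusted p under 0.05 over all genes tested. Stages were compared in the 4 control mice with mouse as a term. Each library is a separate mouse, so p-values measure the spread between mice. The members and gene lists were chosen with earlier results of these data known. Genes named were the 9 members, pathway genes called in a comparison (the 3 with the smallest p where over 6 were called), and the 3 genes most like each meiotic member. Shares of paralog UMIs used exact two-sided permutation tests over mice with at least 20 UMIs of the pair. Of the genes, 32158 of 32285 matched GENCODE M21 by identifier.

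Alternatives were DESeq2 1.42.0, relative log expression factors, library size alone, no low-count filter, a replicate block, clusters after Seurat 5.3.0 integration, other treatment of cells that held a Nelfb or Tardbp UMI, a stricter call, other sums of stages and each mouse left out; with 1 NELF-B cKO mouse left, it is assumed to vary like the other groups. The 7-stage fit and the fits of pL, L and Z SC alone with no cell left out or without each mouse were added after seeing the data. Steps were tested on simulated data. Precision is limited by 2 and 3 cKO mice and by few late cells.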

Additional observations from a re-analysis of the deposited data

Results flagged for a closer look

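Of 63 sets of 4 control values checked (9 genes at 7 stages), 7 held a mouse whose gap to the others passed Dixon's 95% limit, where chance gives about 1 in 20. In pL SC, control mouse 1 was low for Rec8 (43.04 CPM, others 53.9 to 56.0) and for Smc1b (660.2 CPM, others 725 to 733), and control mouse 2 was high for Rad21l (20.04 CPM, others 9.27 to 9.70). In L SC, control mouse 2 was high for Rec8 (53.69 CPM, others 24.9 to 27.2). In D SC, control mouse 1 was low for Smc3 (9.67 CPM, others 16.9 to 17.5) and for Sgo2a (97.4 CPM, others 127 to 129), and it had 69 D cells, the fewest of the control mice. In P SC, control mouse 3 was high for Stag2 (2.79 CPM, others 1.15 to 1.28), at a level under that of free RNA.

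Between the cKO groups, Rec8 was lower in TDP-43 cKO than in NELF-B cKO pL SC (log2 difference -1.09 ± 0.19, adjusted p = 0.0190, edgeR), and Stag2 was higher in TDP-43 cKO than in NELF-B cKO Z SC (1.08 ± 0.19, adjusted p = 0.00581). With no cell left out both differences lost their call (-0.88, adjusted p = 0.0536, and 0.97, adjusted p = 0.0895), and that of Rec8 was also lost without NELF-B cKO mouse 1 or TDP-43 cKO mouse 1 or 3.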

How the results depend on the processing

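The number of members called depended on several choices. In TDP-43 cKO SG (0 by the main test) DESeq2 called 1. In NELF-B cKO pL, L and Z SC (2) the count was 1 with no low-count filter or with cells left out of control mice too, and 0 with the replicate block, integrated clusters, no cell left out, SG summed in, or an adjusted p under 0.01 with a 2-fold change. In TDP-43 cKO (6) it was 2 with the block, 1 with cells left out of control mice too, 3 with SG summed in and 0 by the stricter call. Between the cKO groups (0) DESeq2 and no filter each gave 1. In P SC, NELF-B cKO (1) had 0 with the block, integrated clusters, cells with a Nelfb UMI left out or the stricter call; TDP-43 cKO (0) had 1 by DESeq2, 1 with no filter and 2 after integration; the cKO groups (0) had 1 with no filter. With no cell left out, pL SC of TDP-43 cKO and the cKO difference there went from 1 to 0, L SC of TDP-43 cKO from 0 to 1 and the Z SC cKO difference from 1 to 0. From Z to P SC (5, where 12024 of 19669 genes were called) library size alone and DESeq2 each gave 8, where 13193 and 12661 genes were called. From P to D SC (3, where 10247 genes were called) they gave 7 and 5, where 11011 and 10532 genes were called. The Rec8 kleisin share difference in TDP-43 cKO was -12.8 points after integration (-11.0 in the main clusters). Apart from the alternatives' own construction, the causes were not tested. For the genotype comparisons the shares of all genes called under each alternative are not given. Those counts therefore show only how far the calls depend on the processing.

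Some directions turned. In TDP-43 cKO pL, L and Z SC Stag3 was -0.0010 with library size alone, -0.0087 with the block and -0.27 with SG summed in; Rad21 was 0.039 with no cell left out and 0.15 with SG summed in; Sgo2a was 0.37 with cells left out of control mice too. In control mice, from SG to pL, L and Z SC, Smc1a was 0.031 after integration; from those to P SC, Stag3 and Sgo2a were -0.26 each with library size alone, past the threshold; from Z to P SC, Smc1b was -0.56 and -0.24, Sgo2a -0.49 and -0.16 (library size alone, DESeq2) and Stag3 -0.083 (library size alone). From P to D SC in 5 stages, Stag3 was 0.29 with DESeq2 and with relative log expression factors and 0.029 after integration, and Smc3 was 0.36 and 0.37 with these and 0.0043 with no mouse term; in 7 stages with library size alone, Stag3 was -0.18 and Smc3 -0.094.

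Leaving out each mouse in turn gave member counts of 0 to 1 for SG (TDP-43 cKO; between cKO groups), pL SC (TDP-43 cKO; between cKO groups), L SC (TDP-43 cKO), P SC (NELF-B cKO) and pL, L and Z SC between cKO groups; 0 to 3 and 2 to 6 for pL, L and Z SC of NELF-B and TDP-43 cKO; 1 to 2 and 2 to 5 for their Z SC, and 1 to 2 between cKO groups there; and 3 to 5 from P to D SC in 7 stages. Rec8 share differences ran from -4.66 to -0.507 points (NELF-B cKO) and -12.3 to -9.99 points (TDP-43 cKO), Smc1b share differences from 0.811 to 3.17 points (NELF-B cKO SG) and -2.45 to -0.749 points (TDP-43 cKO pL, L and Z SC). Log2 values that crossed 0 were Rad21 (-0.13 to 0.071) and Stag3 (-0.093 to 0.083) in TDP-43 cKO pL, L and Z SC, Smc1b from Z to P SC (-0.074 to 0.065), Sgo2a from pL, L and Z to P SC (-0.047 to 0.33), and Stag3 (-0.12 to 0.16) and Smc3 (-0.20 to 0.43) from P to D SC in 5 stages.

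Whether the replicate numbers of the labels pair the mice was not settled, since only same-numbered mice were compared. Their deviations correlated at 0.078 to 0.29 between control and NELF-B cKO mice and at -0.27 to 0.032 between control and TDP-43 cKO mice. Between the cKO groups the correlations were -0.43 to -0.29. With the number as a replicate block, Stag2 (0.85, adjusted p = 0.0318) and Smc1a (0.63, adjusted p = 0.0458) were the members called in TDP-43 cKO pL, L and Z SC. Limits are the 2 NELF-B cKO mice, the few late cells of cKO mice, stages drawn from the same cells, and transcripts below free RNA in P and D SC.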

Other observations

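Rec8 transcript was also found in Sertoli cells, the somatic support cells of the tubule. It stood at 20.5 to 54.1 CPM over the 9 mice (1533 UMIs), 1.31 to 2.35 times its level in the free RNA of the same library, and above it in 9 of 9 mice. Smc1b in Sertoli cells was at 0.253 to 1.16 times its free level, above it in 2 of 9 mice, and Stag3 at 0.187 to 0.518 times, above it in none of the 9. Rec8 in the other somatic cells of control mice was lower, at 9.37 ± 3.45 CPM in Leydig cells and 4.31 ± 2.51 CPM in macrophages (SD, n = 4).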
